A study of Homo sapiens with 6 samples.

Results

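The DNA replication and G1/S genes described here are 55 genes of origin licensing, the replicative helicase, the DNA polymerases, the sliding clamp, nucleotide supply, the E2F factors and cyclin E. They were taken by symbol from a count table of 28008 genes, and 55 of 55 were found and passed the filter on low counts. The RNA-Seq libraries came from DU-145-DR/tet-MUC1shRNA cells, which derive from the human prostate cancer line DU-145, were selected with increasing docetaxel (DTX) until resistant, and carry a hairpin RNA (shRNA) directed at MUC1 that doxycycline (DOX) switches on. DOX-negative libraries (n = 3) came from cultures given the DMSO vehicle, and DOX-positive libraries (n = 3) came from cultures given 500 ng/ml DOX to silence MUC1. Both groups share the DTX-resistant background and the stably introduced hairpin vector, although in the labels only the DOX-positive treatment mentions it. No library of DOX-treated cells with a control hairpin was analysed here, so MUC1 silencing and exposure to DOX cannot be told apart. The study treats these cells with DOX for a week. Replicates are triplicate cultures of one line.

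DNA replication is prepared in G1, when the origin recognition complex (ORC), CDC6 and CDT1 load the MCM2-7 helicase onto origins. In S phase CDC45 and GINS join MCM2-7 to make the active helicase, polymerase alpha-primase lays down primers, and polymerases delta and epsilon extend them on the PCNA clamp, which replication factor C (RFC) loads. Many of the genes are transcribed by E2F factors, which RB family proteins restrain until cyclin E and CDK2 release them, and DU-145 is known to lack functional RB1 protein. Amounts of RNA in a culture depend on the share of cycling cells as well as on the RNA per cell, and these cannot be told apart in bulk libraries.

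MUC1 transcripts were counted 387, 484 and 396 times in the DOX-negative libraries and 75, 74 and 66 times in the DOX-positive libraries, a fall from 21.9 ± 2.58 to 3.86 ± 0.584 CPM (SD, n = 3; CPM, counts scaled to the library total). Library totals ran from 15092691 to 23243713 counts, and a detection floor of 3 counts corresponded to between 0.131 and 0.202 CPM, which covers counting error only. The epithelial markers KRT8, KRT18, EPCAM and CDH1 passed the filter and were called higher in DOX-positive cells (4 of 4). Of 5 markers of blood and endothelial cells, 0 passed the filter, and CD3E was at 0. One library stood apart for the replication genes. In DOX-positive replicate 2 their summed level was 3751 CPM, below the 4347 and 4357 CPM of DOX-positive replicates 1 and 3 and the 4424, 4492 and 4848 CPM of the DOX-negative libraries.

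Genes of the replication machinery were called in both directions. Of the 55 genes, 14 were lower in DOX-positive cells at an adjusted p under 0.05, 3 were higher and 38 passed in neither direction. Over all 14292 genes tested, 26.7% were called, 13.7% lower and 13.0% higher. The lower genes were ORC2, MCM3, MCM4, MCM5, GINS2, GINS4, POLA1, POLE2, RFC1, RFC4, RFC5, RPA1, RPA3 and TK1, and the higher genes were ORC3, RRM2 and E2F7. Log2 fold changes ran from -0.63 to 0.33 with a median of -0.14, beside a median of -0.0034 over all genes tested, and 40 of 55 were below 0. Groups did not overlap, with every DOX-positive library below every DOX-negative one, for 16 of the 55 genes, beside 20.2% of all genes tested, and with every DOX-positive library above for 4 of 55, beside 19.5%. Of the 14 lower calls, 7 (MCM4, MCM5, POLE2, RFC1, RFC4, RFC5 and RPA1) were made in all 6 fits that each left out 1 library, and 0 of the 3 higher calls were. Over all genes 3816 were called in the main fit and between 2784 and 3645 in those fits. How many of all called genes kept their call throughout was not counted. On the deposited TPM scale, where the median over all genes was itself -0.32, 93.2% of the genes called were lower, beside 51.2% on counts, and ORC3, RRM2 and E2F7 were at -0.071, -0.19 and -0.10, below 0 but above that median.

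**Figure D1:**
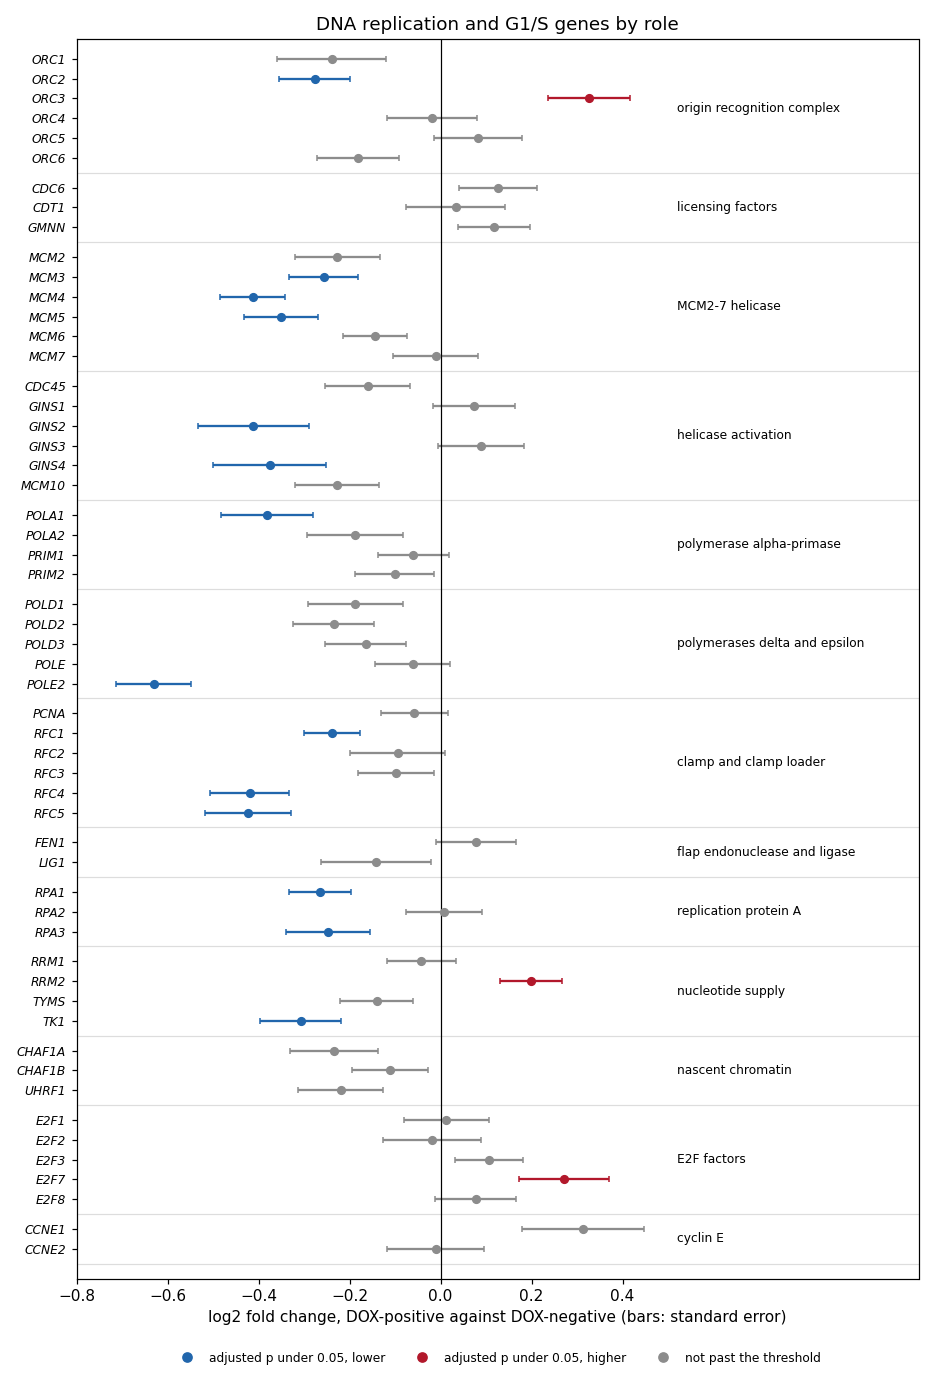
Log2 fold change of each of the 55 genes, DOX-positive against DOX-negative cells, on the x axis, with genes in rows grouped by role and bars showing the standard error. POLE2 lies farthest to the left at -0.63, the 3 genes called higher are ORC3, RRM2 and E2F7, and 38 genes in grey did not pass the threshold.

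The largest change was in POLE2, the second subunit of the leading-strand polymerase epsilon. POLE2 was at 149, 130.1 and 172 CPM in the DOX-negative libraries and 101, 96.7 and 92.9 CPM in the DOX-positive libraries. All 3 DOX-positive libraries lay close together and below the lowest DOX-negative library, while the DOX-negative libraries were spread. Its level fell from 150.3 ± 20.8 to 97.0 ± 4.23 CPM (SD, n = 3), to 64.6% of the DOX-negative level (log2 fold change -0.63 ± 0.0821 (SE), adjusted p = 5.74e-06), and it was the only one of the 55 genes past the threshold whose log2 fold change was 0.5 or more in size. It was also the only one called on the deposited TPM scale. POLE, the catalytic subunit of the same polymerase, gave 104, 111 and 95.7 against 105, 85.1 and 107 CPM and a log2 fold change of -0.062 (adjusted p = 0.633), so the groups overlapped for the catalytic subunit and not for POLE2. The further subunits POLE3 and POLE4, outside the 55 genes, had log2 fold changes of 0.061 and 0.11 (adjusted p = 0.583 and 0.529), with overlapping groups. The polymerase delta subunits POLD1, POLD2 and POLD3 had log2 fold changes of -0.19, -0.23 and -0.16 and none passed the threshold, although POLD2 was close to it (adjusted p = 0.0546). POLD4, also outside the 55, was at 0.23 and did not pass (adjusted p = 0.166), although its DOX-positive libraries all lay above its DOX-negative ones.

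**Figure D2:**
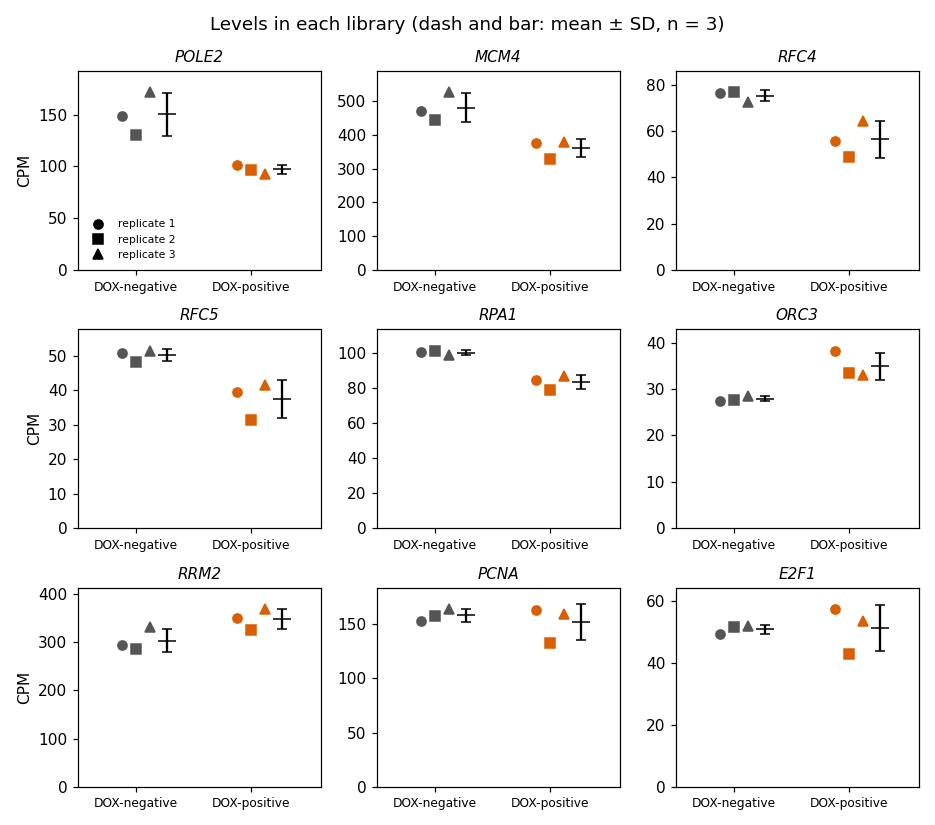
Level in CPM, on axes that start at 0, of 9 replication genes in each library, with 1 symbol per replicate and a dash and bar for mean ± SD (n = 3). POLE2, MCM4, RFC4, RFC5 and RPA1 lie lower in all 3 DOX-positive libraries, ORC3 lies higher in all 3, and the groups overlap for RRM2, PCNA and E2F1.

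POLA1, the catalytic subunit of polymerase alpha, which starts every new strand, was at 27.1, 32.1 and 34.8 CPM in the DOX-negative libraries and 23.9, 22.7 and 25.7 CPM in the DOX-positive libraries. Each DOX-positive library was below each DOX-negative library, and the level fell from 31.3 ± 3.90 to 24.1 ± 1.53 CPM (log2 fold change -0.38 ± 0.102 (SE), adjusted p = 0.00769). Without DOX-negative replicate 3 the call was lost (log2 fold change -0.30, adjusted p = 0.0596). Its partners in the complex, POLA2 and the primase subunits PRIM1 and PRIM2, had log2 fold changes of -0.19, -0.06 and -0.10, and none passed the threshold.

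Within MCM2-7, the hexamer that unwinds DNA, 3 of 6 subunits were lower and 0 higher, beside 13.7% and 13.0% of all genes tested. All 6 had log2 fold changes below 0. No role group was tested against those shares. MCM4 was at 472, 445 and 527 CPM in the DOX-negative libraries and 376, 329.7 and 379 CPM in the DOX-positive libraries. The lowest DOX-negative library stood above the highest DOX-positive one, and the mean fell from 481 ± 41.9 to 362 ± 27.6 CPM (log2 fold change -0.41 ± 0.0711 (SE), adjusted p = 0.000164). MCM5 gave 123, 114 and 135 against 109, 86.8 and 96.0 CPM and also separated the groups (-0.35, adjusted p = 0.00265). MCM3 gave 321, 344 and 365 against 311, 248 and 303 CPM, with DOX-positive replicate 2 far under the others (-0.26, adjusted p = 0.0148). The call for MCM3 was lost without that library (adjusted p = 0.0845) and without DOX-negative replicate 3 (adjusted p = 0.0717), whereas those for MCM4 and MCM5 were made whichever library was left out. MCM2 at -0.23 (adjusted p = 0.0764) and MCM6 at -0.14 (adjusted p = 0.133) did not pass. MCM7 gave 81.6, 95.5 and 91.8 against 98.6, 72.6 and 96.0 CPM, and its log2 fold change of -0.011 was within its standard error of 0.0938.

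The 6 genes of helicase activation were split. GINS2 and GINS4, members of the GINS tetramer that couples CDC45 to MCM2-7, were lower, while GINS1 and GINS3, which encode the other members, had log2 fold changes of 0.073 and 0.089 and did not pass. GINS2 was at 20.4, 21.4 and 21.7 CPM in the DOX-negative libraries and 16.0, 12.9 and 19.1 CPM in the DOX-positive libraries. The DOX-negative libraries were nearly equal and the DOX-positive ones spread below them, for a fall from 21.2 ± 0.712 to 16.0 ± 3.10 CPM (log2 fold change -0.41 ± 0.122 (SE), adjusted p = 0.0152). GINS4 gave 23.9, 27.4 and 29.5 against 19.6, 17.3 and 25.9 CPM, so the groups overlapped, with DOX-positive replicate 3 inside the DOX-negative range (-0.38, adjusted p = 0.0282, and 0.0772 with TPM rescaled without 5 short noncoding RNAs). The GINS2 call was lost without DOX-negative replicate 3 (adjusted p = 0.0502) and without DOX-positive replicate 2 (adjusted p = 0.0718). That for GINS4 was lost without DOX-negative replicate 2 (adjusted p = 0.0647), DOX-negative replicate 3 (0.125), DOX-positive replicate 1 (0.0953) or DOX-positive replicate 2 (0.114). CDC45 at -0.16 and MCM10, a factor that helps to start the helicase, at -0.23 did not pass (adjusted p = 0.218 and 0.0725), although their DOX-positive libraries all lay below their DOX-negative ones.

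Clamp loading gave a further 3 lower genes of 6, beside 13.7% of all genes tested. RFC4, a small subunit of the loader, was at 76.2, 76.8 and 72.3 CPM in the DOX-negative libraries and 55.6, 48.9 and 64.4 CPM in the DOX-positive libraries. The DOX-negative values were tightly grouped, the DOX-positive values did not reach them, and the mean fell from 75.1 ± 2.42 to 56.3 ± 7.78 CPM (log2 fold change -0.42 ± 0.0866 (SE), adjusted p = 0.000942). RFC5 gave 50.7, 48.3 and 51.5 against 39.5, 31.3 and 41.6 CPM and fell to 74.6% of the DOX-negative level (-0.42, adjusted p = 0.00190). RFC1, the large subunit, gave 201, 207 and 194 against 170.2, 164 and 178 CPM, a smaller fall with little spread within either group (-0.24, adjusted p = 0.00674). Each of these 3 calls was made whichever library was left out. RFC2 at -0.095 and RFC3 at -0.10 did not pass (adjusted p = 0.550 and 0.425). PCNA, the clamp itself and a common marker of proliferating cells, gave 152, 158 and 164 against 163, 133 and 159 CPM and a log2 fold change of -0.058 (adjusted p = 0.610), and 2 of its 3 DOX-positive libraries were within the DOX-negative range.

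Replication protein A coats single-stranded DNA as a trimer of RPA1, RPA2 and RPA3. RPA1 was at 100.3, 101 and 98.8 CPM in the DOX-negative libraries and 84.3, 78.9 and 86.7 CPM in the DOX-positive libraries. Spread within the groups was small against the gap between them, and the mean fell from 100.1 ± 1.26 to 83.3 ± 4.01 CPM (log2 fold change -0.27 ± 0.0685 (SE), adjusted p = 0.00593). RPA2 gave 35.2, 37.3 and 39.8 against 38.9, 37.0 and 36.9 CPM, with a log2 fold change of 0.0076 (adjusted p = 0.959) whose sign turned with the scaling. RPA3 gave 35.8, 39.1 and 39.6 against 31.3, 29.5 and 36.0 CPM, with DOX-positive replicate 3 just inside the DOX-negative range (-0.25). Its adjusted p of 0.04999 was at the threshold itself, and with RLE factors, DESeq2 or thinned counts the adjusted p was 0.0527, 0.0698 and 0.0612. The call was made in only 1 of 6 such fits with a library left out: without DOX-negative replicates 1, 2 and 3 in turn the adjusted p was 0.0583, 0.115 and 0.145, and without DOX-positive replicates 1 and 2 it was 0.140 and 0.153. FEN1, the flap endonuclease, and LIG1, the ligase, which together finish lagging-strand fragments, had log2 fold changes of 0.078 and -0.14, and neither passed. LIG1, with the lower adjusted p of that pair, was at 16.6, 20.0 and 18.3 CPM in the DOX-negative libraries and 18.3, 13.8 and 17.7 CPM in the DOX-positive libraries (log2 fold change -0.14 ± 0.121 (SE), adjusted p = 0.422), and its groups overlapped.

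The origin recognition complex held genes called in both directions. ORC3, a core ORC subunit, was at 27.4, 27.7 and 28.5 CPM in the DOX-negative libraries and 38.3, 33.4 and 32.9 CPM in the DOX-positive libraries. Every DOX-positive library was above the DOX-negative libraries, which lay close together, and the level rose from 27.9 ± 0.566 to 34.9 ± 2.94 CPM (log2 fold change 0.33 ± 0.0904 (SE), adjusted p = 0.00993), the highest log2 fold change among the 55 genes, and -0.071 on the deposited TPM scale, where the median of all genes was -0.32. Without DOX-positive replicate 1, the highest library, the call was lost (log2 fold change 0.25, adjusted p = 0.0785). ORC2 gave 55.5, 55.4 and 58.8 against 44.2, 46.6 and 49.4 CPM and fell (-0.28, adjusted p = 0.0112), with no overlap of the groups. That call was lost without DOX-negative replicate 3 (adjusted p = 0.05001) and without DOX-positive replicate 1 (adjusted p = 0.0668). ORC1, the subunit whose level changes over the cell cycle, had a log2 fold change of -0.24 (adjusted p = 0.148), ORC6 of -0.18 (0.144), ORC4 of -0.018 (0.916) and ORC5 of 0.082 (0.580).

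None of the 3 licensing factors passed the threshold, and all 3 had log2 fold changes above 0 on counts. CDC6, which works with CDT1 to load MCM2-7, gave 118, 108 and 125 against 142, 107 and 134 CPM. DOX-positive replicate 2 was at the bottom of the DOX-negative range and the other two DOX-positive libraries were above it. The log2 fold change was 0.13 (adjusted p = 0.302), and without DOX-positive replicate 2 it was 0.24 and passed the threshold as a rise (adjusted p = 0.0195). CDT1 had a log2 fold change of 0.033 (adjusted p = 0.861). GMNN, which encodes geminin, the inhibitor of CDT1, was at 44.4, 47.6 and 46.9 CPM in the DOX-negative libraries and 51.3, 47.6 and 51.7 CPM in the DOX-positive libraries (log2 fold change 0.12 ± 0.0786 (SE), adjusted p = 0.294), with the lowest DOX-positive library level with the highest DOX-negative one. On the deposited TPM scale, where the median of all genes was -0.32, all 3 were below 0.

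Nucleotide supply also had calls in both directions. TK1, the cytosolic thymidine kinase, was at 75.3, 87.9 and 83.1 CPM in the DOX-negative libraries and 72.1, 56.2 and 70.9 CPM in the DOX-positive libraries. DOX-positive replicate 2 was the lowest library and the groups did not overlap, with a fall from 82.1 ± 6.34 to 66.4 ± 8.86 CPM (log2 fold change -0.31 ± 0.0890 (SE), adjusted p = 0.0131). Without that library the adjusted p was 0.0666, and without DOX-negative replicate 2 it was 0.0572, so the call was lost in both. RRM2, the small subunit of ribonucleotide reductase, gave 294, 285 and 331 against 349.7, 325 and 368 CPM, where DOX-positive replicate 2 was under DOX-negative replicate 3. It rose by 0.20 on the log2 scale (adjusted p = 0.0349), and was at -0.19 on the deposited TPM scale, where the median of all genes was -0.32. The call was lost with total counts (log2 fold change 0.16, adjusted p = 0.0643) and with TPM rescaled without 5 short noncoding RNAs (adjusted p = 0.0803), and without DOX-negative replicate 1 (adjusted p = 0.145), DOX-negative replicate 2 (0.115), DOX-positive replicate 1 (0.0877) or DOX-positive replicate 3 (0.168). RRM1, the large subunit of the reductase, and TYMS, thymidylate synthase, had log2 fold changes of -0.042 and -0.14 and did not pass. The genes for nascent chromatin, CHAF1A and CHAF1B of the histone chaperone CAF-1 and UHRF1, which helps to copy DNA methylation, had log2 fold changes of -0.23, -0.11 and -0.22. CHAF1A had the lowest adjusted p of these (log2 fold change -0.23 ± 0.0959 (SE), adjusted p = 0.0753), at 43.7, 49.5 and 44.9 CPM in the DOX-negative libraries and 43.4, 33.1 and 40.9 CPM in the DOX-positive libraries, with DOX-positive replicate 1 just under the DOX-negative range and DOX-positive replicate 2 well under it.

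Of the 5 E2F genes 1 was higher, beside 13.0% of all genes tested, and neither cyclin E gene passed. E2F1, an activator and itself an E2F target, gave 49.2, 51.4 and 51.7 against 57.3, 42.7 and 53.6 CPM. DOX-positive replicate 2 was below the DOX-negative libraries and the other two DOX-positive libraries were above them, for a log2 fold change of 0.012 (SE 0.0930, adjusted p = 0.940). E2F2 at 18.7, 21.8 and 21.2 against 20.9, 18.0 and 22.1 CPM and E2F3 at 67.3, 66.5 and 69.2 against 74.1, 67.3 and 77.2 CPM, the other activators, had log2 fold changes of -0.019 and 0.11 (adjusted p = 0.920 and 0.315). E2F7, an atypical E2F that represses E2F targets, was at 25.0, 26.7 and 32.0 CPM in the DOX-negative libraries and 32.2, 33.5 and 35.6 CPM in the DOX-positive libraries. Its lowest DOX-positive library was only just above its highest DOX-negative one, and it rose from 27.9 ± 3.68 to 33.8 ± 1.73 CPM (log2 fold change 0.27 ± 0.0988 (SE), adjusted p = 0.0457), with a value of -0.10 on the deposited TPM scale, where the median of all genes was -0.32. The E2F7 call was lost on all 6 libraries with DESeq2 (adjusted p = 0.0550), with total counts (0.0760), with counts thinned to the smallest total (0.0963) and with rescaled TPM (0.135). E2F7 kept its call in only 1 of 6 such fits with a library left out: the adjusted p was 0.225 and 0.123 without DOX-negative replicates 1 and 2, and 0.0540, 0.0579 and 0.151 without DOX-positive replicates 1, 2 and 3. E2F8, the other atypical E2F, gave 41.4, 36.5 and 39.8 against 45.5, 37.8 and 40.6 CPM and did not pass (0.077, adjusted p = 0.571). CCNE1, which encodes the cyclin that drives CDK2 at the G1/S boundary, was at 9.03, 9.36 and 7.81 CPM in the DOX-negative libraries and 11.1, 10.8 and 10.6 CPM in the DOX-positive libraries. The groups did not overlap, but the log2 fold change of 0.31 ± 0.133 (SE) did not pass (adjusted p = 0.0874). CCNE2 gave 38.2, 33.1 and 42.5 against 38.8, 31.8 and 42.7 CPM and a log2 fold change of -0.011 (adjusted p = 0.954).

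Library by library, the shift of the list lay mostly in 1 library. Each library was set against the mean of the DOX-negative libraries (a DOX-negative library against the other two), in log2 CPM. The median over the 55 genes was -0.080, 0.022 and 0.082 in DOX-negative replicates 1, 2 and 3, and -0.051, -0.28 and -0.052 in DOX-positive replicates 1, 2 and 3. By this measure DOX-positive replicates 1 and 3 were within the range of the untreated libraries, and DOX-positive replicate 2 was outside it. The references differ, with 2 libraries for a DOX-negative and 3 for a DOX-positive library, which widens the DOX-negative range. In summed level, DOX-positive replicates 1 and 3 (4347 and 4357 CPM) were below the lowest DOX-negative library (4424 CPM). The median over all genes tested was between -0.0057 and 0.0061 in every library. Below the DOX-negative mean were 32, 45 and 35 of the 55 genes in DOX-positive replicates 1, 2 and 3, and 42 of 55 in DOX-negative replicate 1. Over all 14292 genes tested, 7122, 7250 and 7064 were below that mean in DOX-positive replicates 1, 2 and 3. DOX-positive replicate 2 was the lowest of the 3 DOX-positive libraries for 43 of the 55 genes, a count that was not made over all genes. Its MCM2-7 median was -0.47, against -0.16 and -0.12 in DOX-positive replicates 1 and 3, and its median for nascent chromatin was -0.47, against -0.029 and -0.15. Licensing factors, the E2F genes and the flap endonuclease and ligase pair were below 0 in this library and above 0 in the other two DOX-positive libraries. The clamp and clamp loader had medians of -0.13, -0.29 and -0.16 in DOX-positive replicates 1, 2 and 3, beside 0.014, 0.011 and 0.069 in the DOX-negative libraries. Polymerases delta and epsilon had -0.10, -0.29 and -0.11, beside -0.0049, 0.051 and 0.14. ORC had -0.096, -0.11 and -0.060, beside -0.038, -0.052 and 0.10. In the other role groups the DOX-positive and DOX-negative medians overlapped by this measure. For MCM2-7 and polymerase alpha-primase that overlap rested on the unequal references. Their lowest DOX-negative medians, in replicate 1, were -0.14 and -0.12, beside -0.12 and -0.087 in DOX-positive replicate 3. Set against the mean of all DOX-negative libraries, their DOX-negative medians would all lie above the DOX-positive ones. Left out, DOX-positive replicate 2 took the number of lower genes from 14 to 9 and the median over the 55 from -0.14 to -0.061, and leaving out DOX-negative replicate 3, the library with the highest replication levels, took the number to 8. Over all genes, 3645 of 14487 were called without DOX-positive replicate 2, 51.5% of them lower. Without DOX-negative replicate 3 it was 3142 of 14501, with 50.7% of them lower. Mitotic genes had medians of -0.021, -0.18 and -0.032 in DOX-positive replicates 1, 2 and 3, beside -0.055, -0.037 and 0.12 in the DOX-negative libraries. Homologous recombination and Fanconi anaemia genes had -0.14, -0.29 and -0.076, beside -0.018, -0.023 and 0.00066 in the DOX-negative libraries. Whether the culture of DOX-positive replicate 2 held fewer cycling cells was not tested.

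**Figure D3:**
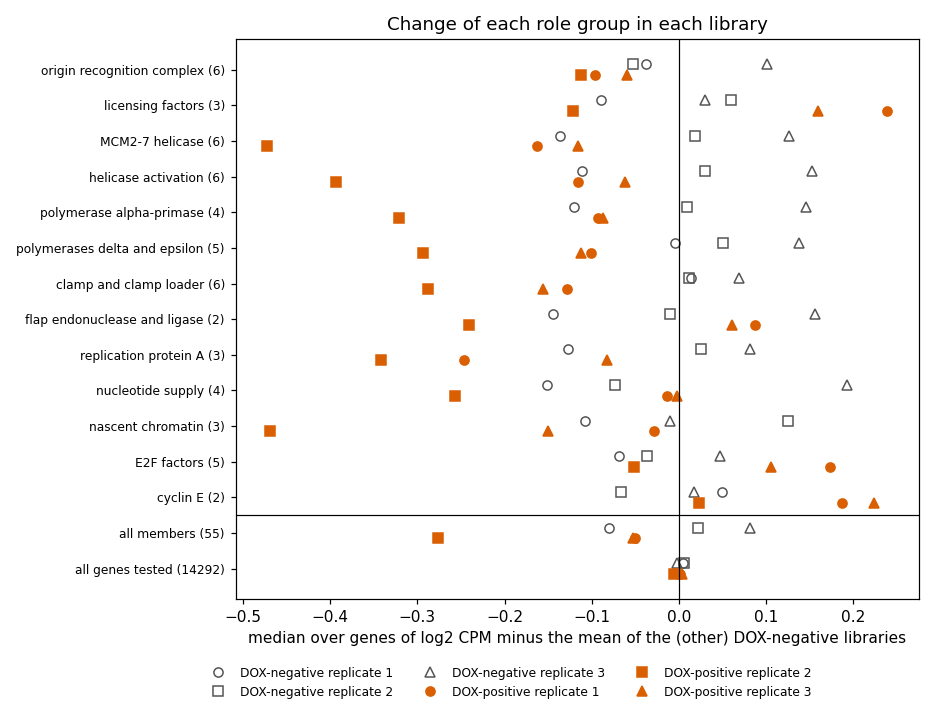
Median over the genes of each role group, with the number of genes in parentheses, of log2 CPM in a library minus the mean of the DOX-negative libraries (for a DOX-negative library, of the other two), with 1 symbol per library. DOX-positive replicate 2 (filled square) lies to the left for most groups and at -0.28 over all 55 genes, while the other two DOX-positive libraries lie near -0.05, inside the range of the open DOX-negative symbols.

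Within complexes, the balance of subunit transcripts was compared as each subunit's share of the summed TPM of its complex, a ratio that does not depend on the scaling of a library. ORC3 went from 14.1% of ORC transcripts in DOX-negative cells to 18.4% in DOX-positive cells, with 13.9%, 14.6% and 13.7% against 20.0%, 18.5% and 16.7% in the single libraries. ORC2 went from 19.4% to 16.8% and ORC6 from 30.5% to 28.1%, and none of these shares overlapped between groups. In MCM2-7, MCM3 was the most abundant subunit per length, at 31.3% and 31.6%, and its share overlapped. MCM4 went from 27.7% to 25.2%, while MCM6 went from 12.8% to 14.1% and MCM7 from 7.09% to 8.48%, again without overlap. GINS2 went from 39.4% to 32.7% of the GINS transcripts, while GINS1 went from 24.6% to 28.8% and GINS3 from 23.5% to 27.8%. RPA2 went from 32.1% to 36.2% of replication protein A transcripts and RPA1 from 35.4% to 33.0%. Among the loader subunits RFC5 went from 12.9% to 11.6% and RFC3 from 14.3% to 16.1%, while the share of RFC4, the most abundant, overlapped. These are shares of RNA and were not tested, and how often such shares separate the groups in other complexes was not counted. Some gaps were small, as for GINS1, at 26.41% in DOX-negative replicate 3 and 26.45% in DOX-positive replicate 3. Shares within a complex are tied to each other and do not show which subunit changed.

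**Figure D4:**
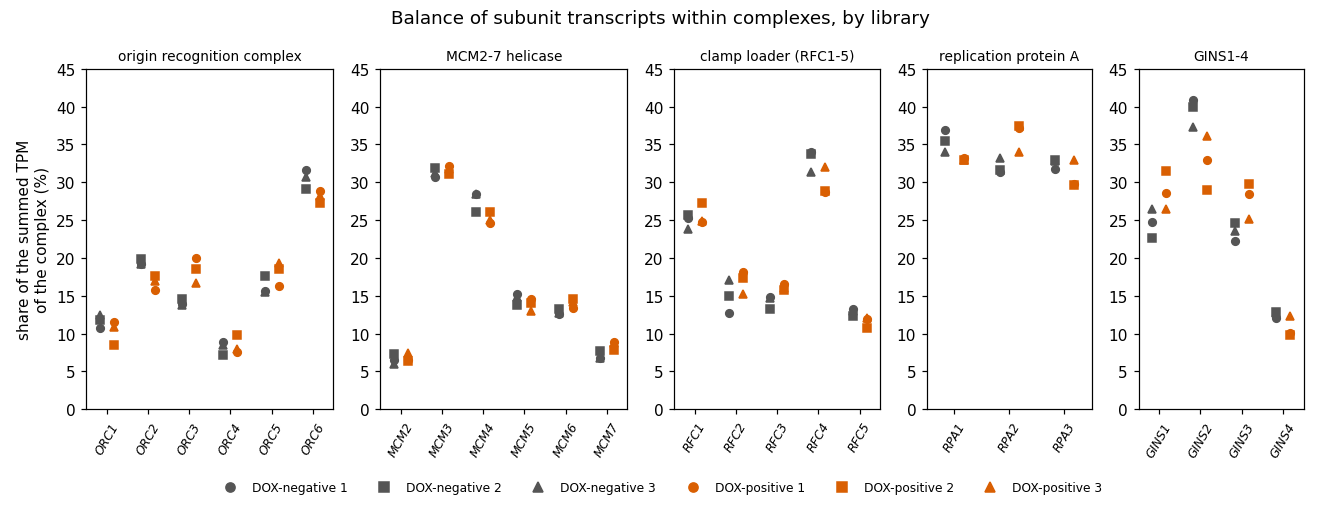
Share of each subunit in the summed TPM of its complex in percent, on axes that start at 0, with 1 symbol per library. ORC3, MCM6, MCM7, RFC3, RPA2, GINS1 and GINS3 lie higher in all 3 DOX-positive libraries, and ORC2, ORC6, MCM4, RFC5, RPA1 and GINS2 lie lower in all 3.

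Of 54 further genes of replication and G1/S control, 13 were lower and 3 were higher, beside 13.7% and 13.0% of all genes tested, and 38 did not pass, with a median log2 fold change of -0.11. The 4 largest falls were in CDCA7, a partner of the chromatin remodeller HELLS, at 64.5, 52.2 and 65.6 against 35.6, 39.9 and 36.8 CPM (-0.70, adjusted p = 6.03e-06), RBL1, which encodes the RB relative p107, at 102, 96.0 and 99.9 against 68.6, 64.2 and 69.7 CPM (-0.56, adjusted p = 3.62e-06), CLSPN, the checkpoint mediator claspin, at 103, 108 and 118 against 77.9, 62.6 and 85.6 CPM (-0.55, adjusted p = 0.000103), and E2F5, a repressive E2F, at 25.4, 18.9 and 20.5 against 14.2, 18.6 and 11.8 CPM (-0.53, adjusted p = 0.00738). None of the 4 overlapped between groups. The only 3 rises past the threshold on counts were in CDKN1A, which encodes the CDK inhibitor p21, in MCM9, which acts with MCM8 in repair, and in TFDP2, a dimer partner of E2F factors. CDKN1A was at 62.3, 53.4 and 64.5 CPM in the DOX-negative libraries and 125, 147 and 121 CPM in the DOX-positive libraries and rose to 218% of the DOX-negative level (log2 fold change 1.13 ± 0.0849 (SE), adjusted p = 2.28e-09). MCM9 gave 15.5, 15.2 and 15.1 against 20.0, 22.9 and 20.6 CPM (0.47) and its partner MCM8 gave 59.3, 59.4 and 70.2 against 47.9, 47.9 and 49.4 CPM (-0.38), so the pair moved in opposite directions on counts, each past the threshold (adjusted p = 0.00202 and 0.00136). TFDP2 gave 90.0, 94.1 and 81.8 against 104, 112 and 104 CPM (0.27, adjusted p = 0.00778). RB1 fell by 0.37 on the log2 scale and E2F4 by 0.31 (adjusted p = 0.000643 and 0.00688), TOPBP1 and WDHD1, which act at origin firing and at the fork, by 0.32 and 0.31 (0.00103 and 0.00108), and the nucleotide hydrolases SAMHD1 and DUT by 0.38 and 0.24 (0.000969 and 0.0201).

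Promoters of 47 of the 55 genes were matched by symbol in the RefSeq promoter table of GRCh38.p14, which holds 250 bases before to 50 bases after the start of a gene. They were searched on both strands for the E2F-type motifs TTTGGCGC, TTTCCCGC, TTTGCCGC and TTTCGCGC, for CCAAT and for the CHR element TTTGAA. An E2F-type motif was present in 22 of 47 promoters (46.8%), against 908 of 27305 promoters in the table (3.33%) and 5.35% of the 10483 promoters of genes tested. By call, 4 of 10 lower genes, 1 of 3 higher genes and 17 of 34 genes in neither direction held one. Of the 14 lower genes, MCM4, MCM5, GINS4 and RPA3 had no matched promoter and are not in that count. CCAAT was present in 27 of 47 (57.4%), against 35.7% of the table and 36.4% of the promoters of genes tested. CHR was present in 2 of 47, against 15.4% and 9.45%.

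The promoters of 4 genes are shown because they span the pattern, with a motif in the gene that fell most, in one with several motifs that did not pass, and in one that rose, and no motif in a second gene that fell. They are POLE2 (chr14:49688165-49688464, minus strand), MCM6 (chr2:135876394-135876693, minus strand), ORC3 (chr6:87589885-87590184, plus strand) and RFC5 (chr12:118016453-118016752, plus strand), read 5′ to 3′ along the gene, in lower case with E2F-type motifs in capitals.
POLE2: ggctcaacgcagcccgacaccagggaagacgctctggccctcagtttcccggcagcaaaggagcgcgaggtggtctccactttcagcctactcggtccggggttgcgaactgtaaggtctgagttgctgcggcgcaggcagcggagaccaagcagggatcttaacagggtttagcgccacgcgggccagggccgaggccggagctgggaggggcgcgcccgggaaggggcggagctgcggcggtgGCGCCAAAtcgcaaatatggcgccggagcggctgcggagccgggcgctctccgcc
MCM6: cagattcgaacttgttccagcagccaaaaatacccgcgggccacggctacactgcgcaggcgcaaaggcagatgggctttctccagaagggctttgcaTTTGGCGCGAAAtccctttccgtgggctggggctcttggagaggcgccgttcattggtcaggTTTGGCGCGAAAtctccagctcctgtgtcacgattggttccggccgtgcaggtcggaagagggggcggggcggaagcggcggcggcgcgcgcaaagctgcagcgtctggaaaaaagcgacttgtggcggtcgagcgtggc
ORC3: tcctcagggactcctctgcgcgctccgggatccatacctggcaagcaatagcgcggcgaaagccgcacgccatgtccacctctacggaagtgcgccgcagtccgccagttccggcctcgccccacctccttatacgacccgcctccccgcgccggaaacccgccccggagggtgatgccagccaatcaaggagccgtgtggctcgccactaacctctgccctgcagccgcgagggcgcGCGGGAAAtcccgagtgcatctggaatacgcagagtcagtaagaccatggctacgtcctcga
RFC5: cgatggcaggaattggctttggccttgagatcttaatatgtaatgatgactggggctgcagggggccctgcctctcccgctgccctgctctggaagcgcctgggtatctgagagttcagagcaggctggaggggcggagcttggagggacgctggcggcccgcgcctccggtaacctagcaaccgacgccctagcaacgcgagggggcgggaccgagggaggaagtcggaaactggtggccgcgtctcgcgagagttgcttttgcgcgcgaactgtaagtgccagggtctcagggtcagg

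The POLE2 match, TTTGGCGC on the reverse strand, begins 5 bases before the start, and the ORC3 match, TTTCCCGC on the reverse strand, begins 12 bases before it. MCM6 has 4 matches in 2 places, where TTTGGCGC on the forward strand overlaps TTTCGCGC on the reverse strand, beginning 152, 148, 90 and 86 bases before the start. RFC5 has a CCAAT on 1 of its strands and no E2F-type motif in this window. A match is a run of letters and was not tested as a binding site.

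The heptamer ATCAGTA, which came from an earlier scan of these same data for runs of letters shared by genes that fell, was present in the longest coding transcript of 13 of the 55 genes. Of these 13, 6 were lower (GINS4, MCM4, MCM5, POLA1, RFC1 and RFC4), 1 was higher (E2F7) and 6 passed in neither direction (CCNE2, E2F1, E2F3, MCM6, POLA2 and RFC3), with a median log2 fold change of -0.19. Without it were 42 genes, of which 8 were lower, among them POLE2 and RFC5, with a median of -0.11. Over the genes tested with a coding transcript, 27.9% of those with the heptamer were lower, against 12.1% of those without. The heptamer was picked for being shared by genes that fell, so differences in this direction were built in by that choice. Transcript length was not allowed for, and the part of the heptamer in the falls was not tested.

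Some counts may include reads of other loci. In the GENCODE 29 annotation of GRCh38, 9 of the 55 genes have named pseudogenes, 3 each for PCNA, RPA2 and RRM2, and 24 share exon sequence with a neighbouring gene, among them RFC4 with EIF4A2, RFC5 with WSB2, RPA1 with SMYD4, RPA3 with UMAD1 and GINS2 with GSE1, each on the opposite strand. Whether the counting used strand is not given in the sources used here. For 7 genes a neighbour overlaps on the same strand, which counting by strand would not separate. Among them are RRM2 with AC007240.1, FEN1 with FADS2, PRIM1 with NACA and CHAF1B with MORC3. POLE2 at chr14:49643555-49688422, on the minus strand, and ORC3 at chr6:87590067-87667453, on the plus strand, have neither a named pseudogene nor shared exon sequence.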

How the data were processed

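Libraries were poly(A)-selected and stranded (TruSeq Stranded mRNA), from total RNA of triplicate cultures. The authors deposited whole-number read counts per gene, which the file's name ties to STAR, and TPM values per gene, which depend on transcript length. The submitters' processing notes name STAR, DESeq2, GRCh38 and hg38, and the counting step is not given in the sources used here. Samples were grouped from their titles, and table columns were matched by DOX state and number. The column names carry another abbreviation for the line (DU145TR) than the titles (DU145DR). Of the deposited TPM of a library, between 34.4% and 64.4% belonged to 5 short RNAs, which were RPPH1, RN7SK, RN7SL1, RN7SL2 and RN7SL3.

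The counts were tested with edgeR 4.0.16 (R 4.3.3): filterByExpr, TMM factors, glmQLFit and glmQLFTest with group as the only term, two-sided, with Benjamini-Hochberg adjustment over 14292 genes and a threshold of 0.05. Standard errors were taken as the size of a log2 fold change over the root of its F statistic. CPM use TMM-scaled totals, and deviations by library use log2(CPM + 0.5). Sampling noise was exceeded by every pair of libraries of the same group (chi-square per degree of freedom between 3.76 and 20.2). Alternatives were RLE factors, total counts, DESeq2 1.42.0, other filters, a replicate block, thinned counts, limma 3.58.1 on log2(TPM + 1) and log2(TPM + 0.1), where folds of low genes are understated, and each library left out. TPM rescaled without the 5 short RNAs was added after the data were seen. The fit was tested on simulated data.

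The members and lists were chosen with earlier results of these data known. By rule, full statistics were given to members past the threshold and 0.5 or more in log2 fold change and otherwise to the member with the lowest adjusted p in each role group, with values for all E2F and cyclin E genes and for the 4 largest falls and rises among further genes of the pathway. MCM8, RB1, E2F4, TOPBP1, WDHD1, SAMHD1, DUT, POLE3, POLE4 and POLD4 were named after their values were seen. A few of the markers checked are left out of the text.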

Additional observations from a re-analysis of the deposited data

How the results depend on the processing

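Of the 55 genes, 14 were lower and 3 higher in the main test, and the median was -0.14. RLE factors, DESeq2, counts thinned to the smallest total, no filter and at least 10 counts in every library gave between 13 and 18 lower genes and 2 or 3 higher ones. Total counts gave 19 lower and 1 higher, and TPM rescaled without the 5 short noncoding RNAs gave 14 and 1. The deposited TPM gave 443 genes called in all, 1 of the 55 lower, 0 higher and a median of -0.50 at a pseudocount of 1, and 408, 1, 0 and -0.53 at 0.1, with the median of all genes at -0.32 and -0.39; the median of the 55 genes was under that of all genes in every setting, by 0.057 to 0.18. With each library left out in turn, between 2784 and 3645 genes were called, between 8 and 16 of the 55 lower and between 0 and 3 higher, and the median ran from -0.18 to -0.061.

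Same-numbered libraries did not deviate together (correlations of -0.046, -0.12 and -0.032), so the numbers gave no pairing. A replicate block gave 3158 genes called, 13 of the 55 lower and 2 higher, with 15 of the 17 calls shared and those of RPA3 and RRM2 lost (edgeR adjusted p = 0.0779 and 0.0512). Other calls among the 55 did not change.

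Some log2 fold changes changed sign. They turned to -0.0029 for CDT1, -0.027 for RPA2 and -0.023 for E2F1 with total counts, to -0.0042, -0.016 and -0.023 for the same 3 with rescaled TPM, and to 0.0020 for ORC4, -0.0079 for RPA2 and 0.024 for CCNE2 with thinned counts. At pseudocounts of 1 and 0.1, deposited TPM, which moved the median of all genes, gave -0.071 and -0.073 for ORC3, -0.29 and -0.31 for ORC5, -0.27 and -0.27 for CDC6, -0.35 and -0.37 for CDT1, -0.27 and -0.28 for GMNN, -0.29 and -0.31 for GINS1, -0.28 and -0.30 for GINS3, -0.31 and -0.31 for FEN1, -0.37 and -0.38 for RPA2, -0.19 and -0.19 for RRM2, -0.38 and -0.39 for E2F1, -0.27 and -0.29 for E2F3, -0.10 and -0.11 for E2F7, -0.30 and -0.32 for E2F8, -0.077 and -0.078 for CCNE1. The cause was not tested in the other settings. With a library left out, ranges crossed 0 for ORC4 (-0.13 to 0.049), CDT1 (-0.091 to 0.15), RPA2 (-0.034 to 0.055), E2F1 (-0.080 to 0.13), MCM7 (-0.092 to 0.12), E2F2 (-0.084 to 0.059), PRIM2 (-0.15 to 0.0043), RFC2 (-0.21 to 0.026), RRM1 (-0.092 to 0.035), CCNE2 (-0.10 to 0.10), E2F8 (-0.0016 to 0.14), POLE (-0.12 to 0.036), PCNA (-0.11 to 0.029), ORC5 (-0.00097 to 0.15).

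The fewest reads of the 55 were those of CCNE1 and LIG1. With 3 libraries a group, 7 of the 14 lower calls and 3 of the 3 higher calls depended on single libraries, as given beside each gene. The like share over all genes called was not counted. Pairs of libraries of a group differed by more than counting error.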

Other observations

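Lists of neighbouring processes were counted the same way. Of 30 mitotic genes, 7 were lower and 1 higher, BIRC5 (survivin, 0.34 on the log2 scale), with a median of -0.074, beside 13.7% lower and 13.0% higher over all genes. MKI67, the source of the Ki-67 proliferation marker, had a log2 fold change of 0.065 (edgeR adjusted p = 0.513). Of 27 homologous recombination and Fanconi anaemia genes, 10 were lower and 0 higher, with a median of -0.18, and the lowest value was in BLM, the Bloom syndrome helicase, at 31.3, 36.9 and 34.0 against 24.8, 21.6 and 26.0 CPM (-0.50, adjusted p = 0.000586). No test compared these lists with the replication genes.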
